A study of Mus musculus with 12 samples.

Results

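The class I and class II histone deacetylases are 10 enzymes in the mouse, Hdac1 to Hdac10, and their transcripts were followed here in liver and lung of mice given acrylamide and in untreated mice. Members were the spots whose gene name, or the symbol of whose Entrez number, was 1 of the 10 gene names. They came to 21 of the 61657 spots that were not controls, and 10 of the 26237 gene symbols on the array. RNA from female B6C3F1/Nctr mice, a hybrid strain, was labelled with Cy3 and measured on 12 Agilent arrays of 1 colour. Titles and source names give 2 tissues, each with 3 arrays of untreated mice and 3 of mice given 0.7 mM acrylamide. Controls are labelled as matched in age. The age of the mice, how acrylamide was given and for how long were not stated in the labels. Arrays are named by tissue, treatment and the number in the title.

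Histone deacetylases remove acetyl groups from lysines of histones and of other proteins, and histone deacetylation is mostly associated with repression of transcription. The class I enzymes Hdac1 and Hdac2 work inside the SIN3, NuRD, CoREST and MiDAC complexes and Hdac3 inside the NCoR complex, while Hdac8 is not known to need such a partner complex. The class IIa enzymes Hdac4, Hdac5, Hdac7 and Hdac9 bind MEF2 transcription factors, have little deacetylase activity of their own, and leave the nucleus when kinases phosphorylate them and 14-3-3 proteins bind. The class IIb enzymes are mainly cytoplasmic: Hdac6 deacetylates alpha-tubulin and cortactin, and Hdac10 deacetylates polyamines.

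Every level below is a log2 intensity minus the 75th percentile of its array, so 0 is the level of a spot at that percentile. Levels of different spots cannot be compared, since each spot binds its own probe. With 3 arrays a group, precision is limited by how few arrays there are. The background limit of an array was the 95th percentile of its 308 negative control spots, and a spot above this limit was taken to be above background. The 75th percentile lay between 294.5 and 621.5 intensity units on liver arrays and between 839.4 and 1376 on lung arrays. Array liver acrylamide 30 stood apart: its background limit was 16.8 units, against 2.35 to 4.45 on the other 11 arrays, and 34287 of its spots were above background, against 46450 to 51099. The tissue entry and the design text say liver for all arrays, whereas 6 titles and source names say lung. All 10 hepatocyte markers were called lower and all 10 alveolar type 2 cell markers were called higher in untreated lung than in untreated liver, as the titles give the tissues. Slide and tissue coincide and cannot be told apart. The labels do not say whether each array is a separate animal, so p-values measure only the spread between these arrays, which may be technical.

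In untreated animals the family differed between the tissues gene by gene. Hdac7, Hdac9, Hdac2, Hdac4 and Hdac1 were higher in lung, by 3.03 to 0.78 on the log2 scale. Hdac6 was lower in lung by 1.58, and Hdac10 and Hdac3 were lower by less than 0.5, calls that did not hold under every scaling. Hdac5 and Hdac8 were not called. This made 8 of 10 members called (5 higher, 3 lower) at a limma adjusted p under 0.05, and 73.3% of the 23306 genes tested were called in the same comparison, so the share of members was near the background. By direction, 30.5% of all genes were called higher and 42.9% lower. The untreated groups did not overlap for 9 members, against 78.6% of all genes. As this is bulk tissue, fewer cells of a type and less RNA per cell cannot be told apart. The median difference of all genes was -0.34, and it was -0.0044 with quantile normalization, -0.13 with median scaling and -0.60 with normexp background correction, so differences near these values depend on the scaling.

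**Figure D1:**
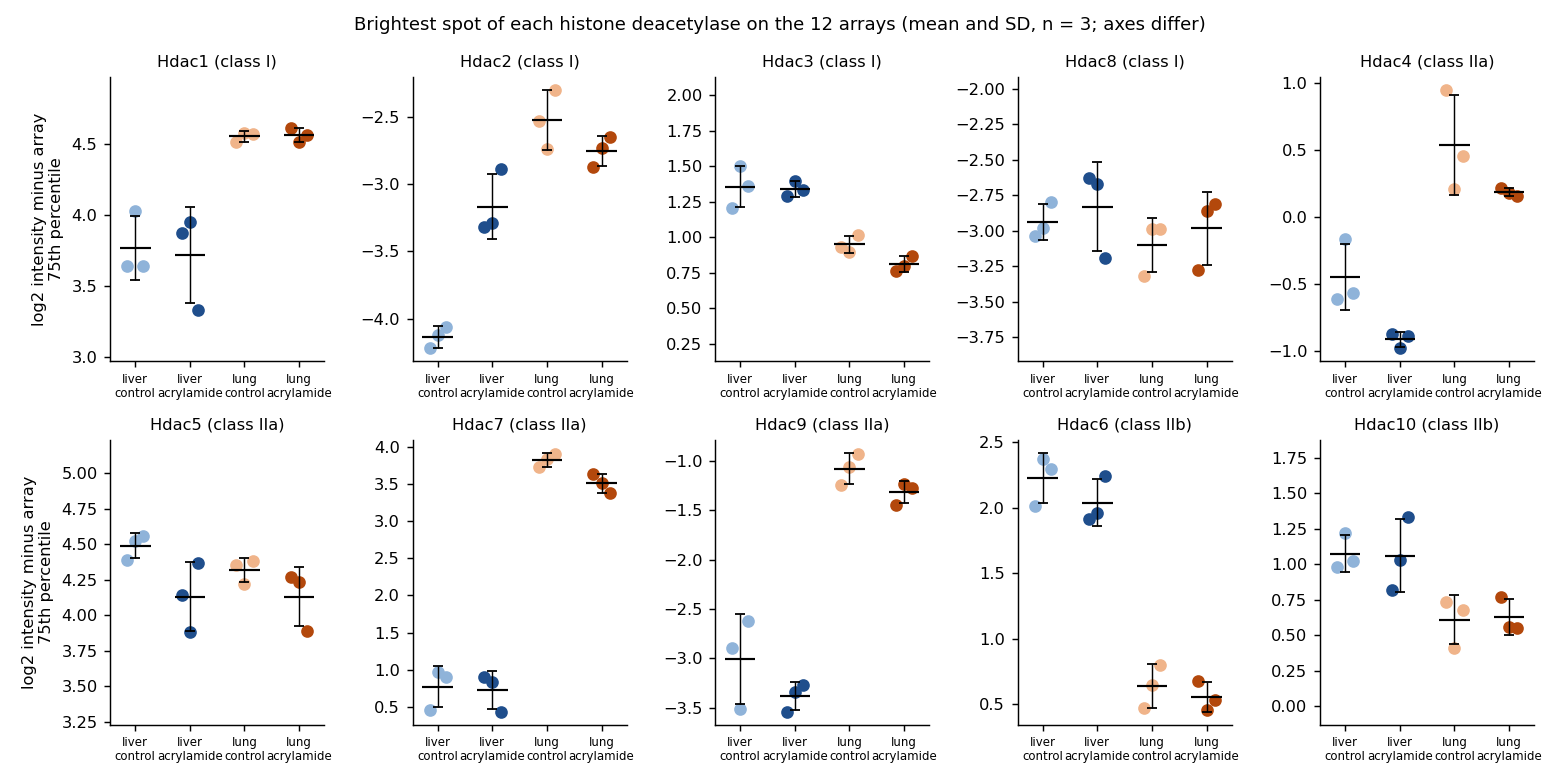
Level of the brightest spot of each histone deacetylase on each array, as log2 intensity minus the 75th percentile of the array; points are arrays, lines and bars the mean and SD of 3 arrays, and each panel has its own axis. Hdac7 lay between 0.44 and 0.97 on the 6 liver arrays and between 3.38 and 3.90 on the 6 lung arrays, and Hdac6 lay higher on every liver array than on every lung array.

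Among the class I enzymes, Hdac1, a catalytic subunit of the SIN3, NuRD and CoREST complexes, has 3 spots. Its brightest spot read 3.64, 4.03 and 3.64 on untreated liver arrays 1, 3 and 4, and 4.51, 4.58 and 4.57 on untreated lung arrays 4, 5 and 6. All lung arrays lay above all liver arrays. The difference was 0.78 ± 0.17 (SE; 1.72-fold, limma adjusted p = 0.00192), and quantile normalization gave 1.36 (adjusted p = 1.67e-05). The spot assigned to another Hdac1 transcript model gave 1.03 ± 0.21 (limma adjusted p = 0.00155 in the fit of every spot). The last Hdac1 spot, assigned to the same transcript as the brightest, gave -0.04 ± 0.24 and overlapped between the tissues, with 0.83 to 1.59 in liver and 0.89 to 1.25 in lung. Over the 12 arrays, with group means removed, the brightest spot followed the second at a Pearson r of 0.88 and the last at -0.11. The 3 spots thus did not give 1 answer for Hdac1, and the probe sequences were not used here.

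Hdac2, the close relative of Hdac1 in the same complexes, has 1 spot. On untreated liver arrays 1, 3 and 4 it read -4.22, -4.12 and -4.06, which was 7.65 to 10.2 times the background limit. On untreated lung arrays 4, 5 and 6 it read -2.53, -2.74 and -2.30, or 58.6 to 81.1 times the limit. Lung was higher on all arrays, by 1.61 ± 0.15 (3.05-fold, limma adjusted p = 4.96e-06). Between the acrylamide groups the lung minus liver difference of Hdac2 was 0.41 ± 0.15 (limma adjusted p = 0.0317), where the liver arrays read -3.32, -3.29 and -2.89 and the lung arrays -2.87, -2.73 and -2.65.

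Hdac3, the catalytic subunit of the NCoR complex, has 2 spots. The brighter spot read 1.21, 1.50 and 1.36 in untreated liver and 0.93, 0.90 and 1.02 in untreated lung. Lung was lower on every array, by a difference of -0.41 ± 0.11 (1.33-fold, limma adjusted p = 0.00585). The dimmer spot gave -0.66 ± 0.23 (limma adjusted p = 0.0252). Hdac3 sat 0.07 below the median of all genes, and median scaling gave -0.20 with an adjusted p of 0.229.

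Hdac8, the class I enzyme that works without a large complex, has 2 dim spots. The brighter read -3.04, -2.98 and -2.80 in untreated liver and -3.32, -2.99 and -2.99 in untreated lung, and the groups overlapped. Its difference was -0.16 ± 0.19 (limma adjusted p = 0.458), with a 95% interval from -0.59 to 0.26, and it was 0.04 with median scaling. The dimmer Hdac8 spot was lower in lung, -0.54 ± 0.15 (limma adjusted p = 0.00767), with -3.82, -4.20 and -4.15 in untreated liver and -4.56, -4.64 and -4.59 in untreated lung. On liver acrylamide 30 that spot was not above background.

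Class IIa held the member furthest from its level in the other tissue. Hdac7, a class IIa enzyme known for its role in endothelial cells and in developing T cells, has 1 spot. It read 0.46, 0.97 and 0.90 in untreated liver and 3.72, 3.83 and 3.90 in untreated lung. The difference was 3.03 ± 0.17 (8.19-fold, limma adjusted p = 9.00e-08), and 91.1% of all genes had a lower difference. The acrylamide arrays repeated it with 2.77 ± 0.17 (limma adjusted p = 1.72e-07). The 10 endothelial markers moved with the tissue as well: their mean level lay between -0.40 and -0.34 in untreated liver and between 2.92 and 3.18 in untreated lung, and all 10 were called higher in lung. The mean of the 10 T and NK cell markers ranged from -2.57 to -2.30 in untreated liver and from -1.05 to -0.04 in untreated lung. Of these markers 9 were called higher and 1 lower, the T cell gene Cd3e, at 0.56 in untreated liver and -1.35 in untreated lung. Their part in the Hdac7 difference was not tested.

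Hdac9, a class IIa enzyme with a known truncated form that lacks the catalytic domain, has 6 spots. Its brightest spot read -2.89, -3.51 and -2.62 in untreated liver and -1.24, -1.06 and -0.93 in untreated lung. Lung was higher on every array, by 1.93 ± 0.21 (3.80-fold, limma adjusted p = 1.20e-05). The third spot, assigned to another transcript, was also higher in lung, 1.37 ± 0.21 (limma adjusted p = 0.000207). It was dim in untreated liver, at 2.85 to 3.61 times the limit, and was not above background on liver acrylamide 30. The second spot, assigned to the same transcript as the brightest, gave 0.52 ± 0.33 (limma adjusted p = 0.192). The fourth spot, from a cDNA clone, had the opposite sign, -0.75 ± 0.34 (limma adjusted p = 0.0755), with -5.18, -4.90 and -4.69 in untreated liver and -5.77, -5.78 and -5.47 in untreated lung. Spots 5 and 6 were near background: spot 5 was above it on 6 arrays and spot 6 on 1 array, liver acrylamide 30, at 2.23 times the limit. No fold is given for them. The Hdac9 spots therefore differed in size. The opposite sign was that of spot 4, which was not called, though every untreated lung array read below every untreated liver array. It was dim, at 4.17 to 5.96 times the limit in untreated liver, but spot 3 was dimmer there.

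Hdac4, a class IIa enzyme best studied in muscle and bone, has 2 spots. The brighter read -0.61, -0.16 and -0.57 in untreated liver and 0.95, 0.21 and 0.46 in untreated lung. Lung was higher on all arrays, by 0.99 ± 0.19 (1.98-fold, limma adjusted p = 0.000759), and by 0.79 without lung control 4, the highest array. The dimmer spot gave 0.22 ± 0.38 (limma adjusted p = 0.618), with overlapping groups. Lung control 4 was also the highest untreated lung array for the dimmer spot (-2.53, against -3.12 and -3.21). It was the highest too for the 12 striated muscle markers (mean level 1.97, against 0.82 and -0.69). The other arrays did not follow this order. Lung control 6, lowest for the muscle markers, read higher for the brighter Hdac4 spot than lung control 5. On lung acrylamide arrays 28, 29 and 30 the muscle mean was 0.49, 1.71 and 0.30, while that Hdac4 spot read 0.22, 0.18 and 0.16. The part of the muscle markers in the Hdac4 level was not tested.

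Hdac5, a class IIa enzyme whose nuclear export is controlled by CaMK and protein kinase D, has 1 spot. It read 4.39, 4.52 and 4.56 in untreated liver and 4.35, 4.22 and 4.38 in untreated lung. Every lung array lay below every liver array, yet the difference of -0.17 ± 0.15 was not called (limma adjusted p = 0.329), with a 95% interval from -0.51 to 0.17. Quantile normalization gave 0.47 with an adjusted p of 0.0138 and median scaling 0.03, so no direction can be given for Hdac5.

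The RefSeq promoter table (assembly GRCm38.p6) held windows for 7 of the 10 members. The 250 bases before the outermost start are shown for 3 class IIa genes: Hdac7 and Hdac9, the members furthest above their liver level in lung, and Hdac5, which was not called. Each lies upstream of the gene, outside its transcripts, and is written 5′ to 3′ on the minus strand. The GC box (GGGCGG), the CCAAT box (CCAAT) and the TATA box (TATAAA) were searched on both strands, and matches are in capitals. The Hdac7 window is chr15:97844503-97844752, the Hdac9 window chr12:34917096-34917345 and the Hdac5 window chr11:102230173-102230422.
Hdac7: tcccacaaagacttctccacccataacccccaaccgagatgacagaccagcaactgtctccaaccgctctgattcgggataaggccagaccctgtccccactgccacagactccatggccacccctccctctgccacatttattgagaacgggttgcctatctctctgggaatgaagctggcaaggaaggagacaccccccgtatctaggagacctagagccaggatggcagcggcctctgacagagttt
Hdac9: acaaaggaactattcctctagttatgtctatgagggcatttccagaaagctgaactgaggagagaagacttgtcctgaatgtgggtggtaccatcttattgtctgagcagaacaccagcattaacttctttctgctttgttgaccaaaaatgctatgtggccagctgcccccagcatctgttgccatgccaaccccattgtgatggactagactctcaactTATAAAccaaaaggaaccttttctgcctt
Hdac5: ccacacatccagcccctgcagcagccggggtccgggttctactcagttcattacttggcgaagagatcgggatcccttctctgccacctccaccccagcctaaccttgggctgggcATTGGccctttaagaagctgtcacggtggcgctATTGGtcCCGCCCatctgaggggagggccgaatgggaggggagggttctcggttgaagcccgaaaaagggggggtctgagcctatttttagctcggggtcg

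The Hdac5 window held 1 GC box and 2 CCAAT boxes and had 12 CpG dinucleotides and 60.8% GC. The Hdac7 window had no match to the 3 motifs, 6 CpG dinucleotides and 56.4% GC. The Hdac9 window had 1 TATA box, whose first base lies 29 bases before the start, no CpG dinucleotide and 44.4% GC. Of the 32851 windows in the table, 32.7% held a GC box, 33.8% a CCAAT box and 12.4% a TATA box in the same 250 bases, and the median was 6 CpG dinucleotides and 52.4% GC. A match describes the letters only, and which start was used in either tissue was not measured. Hdac9 has 2 windows in the table. Hdac7 has 4, which differ among themselves: they hold 5 to 25 CpG dinucleotides and 56.4% to 74.0% GC, and 1 of them has a GC box.

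Both class IIb genes were called lower in lung, but Hdac10 sat close to the median of all genes. Hdac6, the tubulin deacetylase, has 1 spot, which read 2.01, 2.37 and 2.29 in untreated liver and 0.47, 0.65 and 0.80 in untreated lung. All lung arrays lay below all liver arrays, and the difference was -1.58 ± 0.15 (3.00-fold, limma adjusted p = 3.83e-06). Hdac10, the polyamine deacetylase, has 2 spots. The brighter read 0.98, 1.22 and 1.02 in untreated liver and 0.73, 0.41 and 0.68 in untreated lung, a difference of -0.46 ± 0.16 (1.38-fold, limma adjusted p = 0.0212). The dimmer spot was lower in lung too, -0.85 ± 0.12 (limma adjusted p = 0.000137). On its brighter spot Hdac10 sat 0.13 below the median of all genes, and 0.15 above it with normexp background correction. The Hdac10 call on the brighter spot was lost with median scaling (-0.26, adjusted p = 0.132), with slide row as a block (-0.55, adjusted p = 0.0588), without liver control 3 (-0.39, adjusted p = 0.0699) and without lung control 5 (-0.37, adjusted p = 0.0821).

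**Figure D2:**
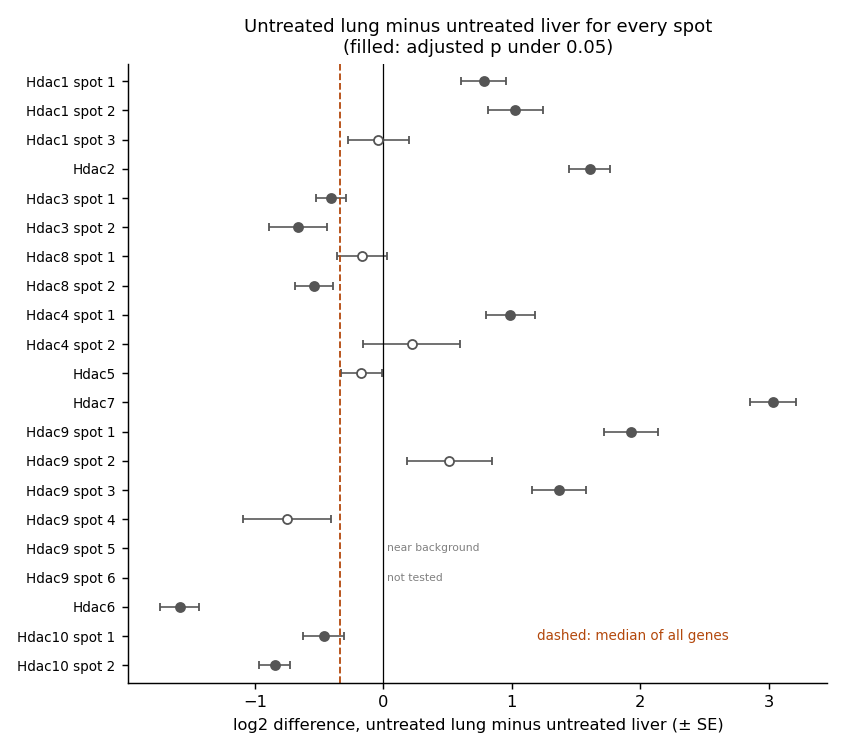
Untreated lung minus untreated liver for each spot of the 10 histone deacetylases, as the log2 difference with its SE from the fit of every spot over 12 arrays; filled points had an adjusted p under 0.05, and the dashed line is the median difference of all genes, -0.34. Spot 5 of Hdac9 is not drawn because it was near background. Of the 20 spots tested, 7 were called higher and 6 lower in lung, and the spots of Hdac1, Hdac4 and Hdac9 spread widely.

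Over all spots, 13 of the 20 tested were called in this comparison, against 66.8% of all spots tested. Both spots of Hdac3 and of Hdac10 were called lower. Hdac1 had 2 of 3 spots called higher, Hdac4 had 1 of 2 and Hdac9 had 2 of 6.

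The partners of these enzymes differed between the tissues in both directions. In the SIN3 complex, which carries Hdac1 and Hdac2, 5 of 16 genes were called higher and 5 lower in untreated lung. Sinhcaf, a SIN3 subunit, was higher by 3.39 ± 0.19 and Suds3, another subunit, differed by -2.09 ± 0.19. In NuRD, 2 of 12 were called higher and 3 lower, among them the scaffold protein gene Gatad2a at 1.51 ± 0.13 and the histone-binding protein gene Rbbp4 at -0.62 ± 0.17. In CoREST, 6 of 10 were called higher and 1 lower, with the scaffold gene Rcor2 at 2.69 ± 0.21. The list named MiDAC, which besides MiDAC genes holds Mier1, Mier2 and Mier3, had 3 of 6 called higher and 1 lower. The scaffold gene Mideas stood at 1.79 ± 0.18, and the calls included Mier1 (0.49 ± 0.11) and Mier2 (-0.73 ± 0.17). In the NCoR list, whose catalytic subunit is Hdac3, 2 of 9 were called higher and 1 lower, and the list gene Coro2a differed by 1.39 ± 0.37. The median differences of these lists were 0.17 (SIN3), -0.02 (NuRD), 0.64 (CoREST), 0.34 (MiDAC) and -0.10 (NCoR), beside -0.34 over all genes.

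Of the kinases and 14-3-3 proteins that act on class IIa enzymes, 15 of 25 genes were called higher and 6 lower in untreated lung. The protein kinase D gene Prkd1 was higher by 6.79 ± 0.41, with a level of -6.29 ± 0.60 (SD, n = 3) in untreated liver and 0.50 ± 0.06 in untreated lung. The background limits of the untreated liver arrays lay between -7.48 and -6.99, so Prkd1 was close to them and the size of its difference is uncertain. Camk4, also called higher, was not above background on any untreated liver array, so its size is uncertain too. Camk1d, a calcium/calmodulin-dependent kinase gene, differed the other way, by -3.77 ± 0.16. Of the MEF2 and other partner factors, 8 of 14 were called higher and 2 lower, with Runx1 at 6.02 ± 0.19 and the serum response factor gene Srf at 2.01 ± 0.14. Runx2, called higher, and Myocd were not above background on any untreated liver array. The size of their differences, which enter the list median, is uncertain. Among partners and substrates of the class IIb enzymes, 5 of 16 were called higher and 8 lower. The tubulin genes there split, with Tuba1a at 5.01 ± 0.16 and Tuba4a at -2.42 ± 0.18. Of the other deacetylases, 1 of 8 was called higher and 4 lower, led by the mitochondrial Sirt3 at -3.54 ± 0.11 and the class IV Hdac11 at -2.99 ± 0.22. Of 13 hepatic genes known to be under Hdac3 or class IIa enzymes, 3 were called higher and 9 lower in lung. Median differences were 0.59, 0.97, -0.38, -0.83 and -1.78 for these 5 lists in the order given.

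With acrylamide in liver, no member passed the test: 0 of 10, and 0% of the 21171 genes tested passed an adjusted p under 0.05 with limma. At an unadjusted p under 0.05 there were 2 members, Hdac2 and Hdac4, beside 6.05% of all genes. In the fit of every spot 3 spots passed that level, those of Hdac2 and Hdac4 and the dimmer spot of Hdac10, beside 6.74% of all spots. The arrays of the groups did not overlap for 3 members, Hdac2, Hdac4 and Hdac5, against 12.2% of all genes. The median difference of the members was -0.05, beside -0.02 over all genes, and 8 of the 10 differences were below 0.

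Hdac2 had the largest difference of the members in liver. It read -4.22, -4.12 and -4.06 in untreated liver and -3.32, -3.29 and -2.89 on acrylamide arrays 27, 29 and 30. All acrylamide arrays lay above all controls. The difference was 0.97 ± 0.17 (1.95-fold, 95% interval 0.56 to 1.37), with a limma p of 0.00108 that did not pass adjustment (adjusted p = 0.665). The spot is dim, and the highest array, liver acrylamide 30, was only 2.37 times its background limit, against 21.4 and 14.3 times on arrays 27 and 29. Without that array the difference was 0.83 ± 0.12 (limma adjusted p = 0.119), and with normexp background correction it was 0.59 ± 0.16. Within slide row 1 it was 1.07 ± 0.28 and within row 2, with 1 array a group, 0.77.

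The mean level of the alveolar type 2 cell markers, like Hdac2, was higher on every liver acrylamide array than on every liver control. It was -1.40, -1.90 and -2.86 on liver acrylamide arrays 27, 29 and 30. In untreated liver it lay between -3.53 and -3.20, against 5.03 to 5.31 in lung. Sftpb and Nkx2-1, which enter this mean, were not above background on any untreated liver array. With acrylamide, Nkx2-1 was not above it on any liver array, Slc34a2 was on 1, and Lpcat1 and Sftpb were on 2 of 3. The limit of liver acrylamide 30 was -4.13, so its mean includes readings not above the limit. Liver acrylamide 30, the liver array highest for Hdac2, was the lowest acrylamide array for the markers. Of the 9 such markers tested in liver, 6 were higher and 3 lower, with none called, and their summed level overlapped between the groups, at 57.6 to 72.7 with acrylamide and 57.8 to 67.5 without. Most of that sum was Abca3, at 5.76 in untreated liver, while the surfactant gene Sftpc differed by 5.26 ± 1.97 (limma adjusted p = 0.784) and was above background on 2 of 3 arrays of each liver group. The mean level of the 7 club and ciliated cell markers of the airway did not overlap between the groups. It lay between -3.13 and -2.33 with acrylamide and between -3.67 and -3.45 without. The summed level of these markers was 179.2 to 196.8 against 144.5 to 169.0. Most of that sum was Cyp2f2, at 7.29 in untreated liver, 7.52 in liver with acrylamide and 7.62 in untreated lung. The mean includes Dnah5, which was not above background on any liver array. Ccdc39 was above it on 1 of 3 liver acrylamide arrays, and Tekt1 and Foxj1 were on 2. In untreated liver each of them was above it on 3 arrays. The mean with acrylamide thus holds readings not above the limit. Of the 6 markers tested in liver, 5 were higher and none was called. The largest differences were those of the club cell secretory protein gene Scgb1a1 (3.17 ± 1.58) and of Scgb3a2 (1.99 ± 0.81). The mean of the 11 macrophage markers lay between 1.69 and 2.01 with acrylamide and between 1.07 and 1.60 without, with 10 higher and none called. For the 12 proliferation genes the means were -1.96 to -1.77 with acrylamide and -2.55 to -1.97 without, with 9 higher and none called. Their part in the Hdac2 difference was not tested.

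**Figure D3:**
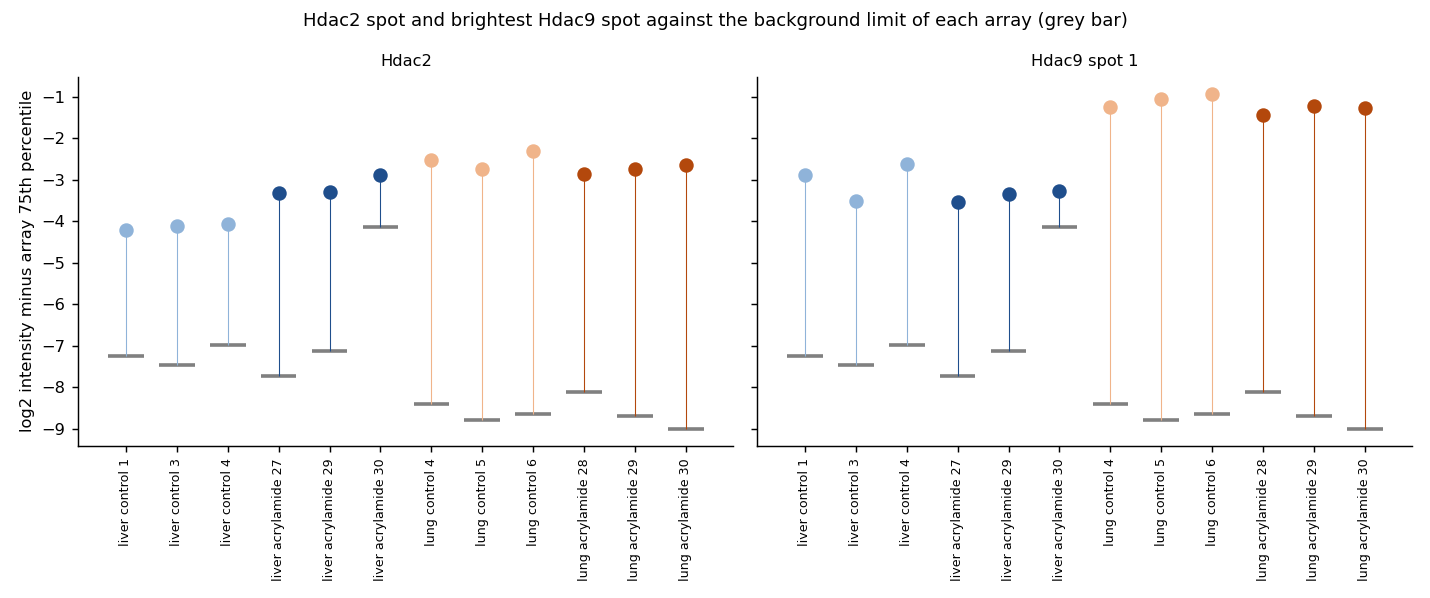
Level of the Hdac2 spot and of the brightest Hdac9 spot on each array (points) and the background limit of the array (grey bars), both as log2 intensity minus the 75th percentile of the array. On liver acrylamide 30 the limit stood at -4.13, against -9.01 to -6.99 on the other arrays, so the Hdac2 spot there was 2.37 times the limit.

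Hdac4 lay lower in liver with acrylamide on its brighter spot, and its dimmer spot did the opposite. The brighter spot read -0.61, -0.16 and -0.57 without acrylamide and -0.87, -0.98 and -0.89 with it, so the groups did not overlap. Its difference of -0.47 ± 0.17 was not called (limma adjusted p = 0.784), and it was -0.32 without liver control 3. The dimmer Hdac4 spot read -3.39, -3.68 and -2.45 without acrylamide and -3.14, -1.82 and -2.30 with it, a difference of 0.75 ± 0.45 (limma adjusted p = 0.761). Hdac5 read 4.39, 4.52 and 4.56 without acrylamide and 4.14, 3.88 and 4.37 with it. These groups did not overlap either, and the difference was -0.36 ± 0.17 (limma adjusted p = 0.784).

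The other members gave small differences in liver. Those of Hdac1 (-0.05), Hdac3 (-0.02), Hdac6 (-0.19), Hdac7 (-0.05), Hdac8 (0.11), Hdac9 (-0.38) and Hdac10 (-0.01) had SEs from 0.14 to 0.25. Hdac1 shows how much 1 array counted: its acrylamide arrays 27, 29 and 30 read 3.87, 3.95 and 3.33, and the difference went from -0.05 to 0.14 without array 30. The 95% intervals were -0.59 to 0.48 for Hdac1, -0.36 to 0.32 for Hdac3 and -0.57 to 0.47 for Hdac7. Shifts within these bounds, in either direction, are not excluded. In the fit of every spot, the dimmer spots of Hdac3 and Hdac10 stood higher on all acrylamide arrays, by 0.51 ± 0.23 (limma adjusted p = 0.739) and 0.42 ± 0.15 (limma adjusted p = 0.737), while their brighter spots gave -0.02 and -0.01. Groups did not overlap for 5 of the 19 member spots tested, against 13.0% of all spots.

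**Figure D4:**
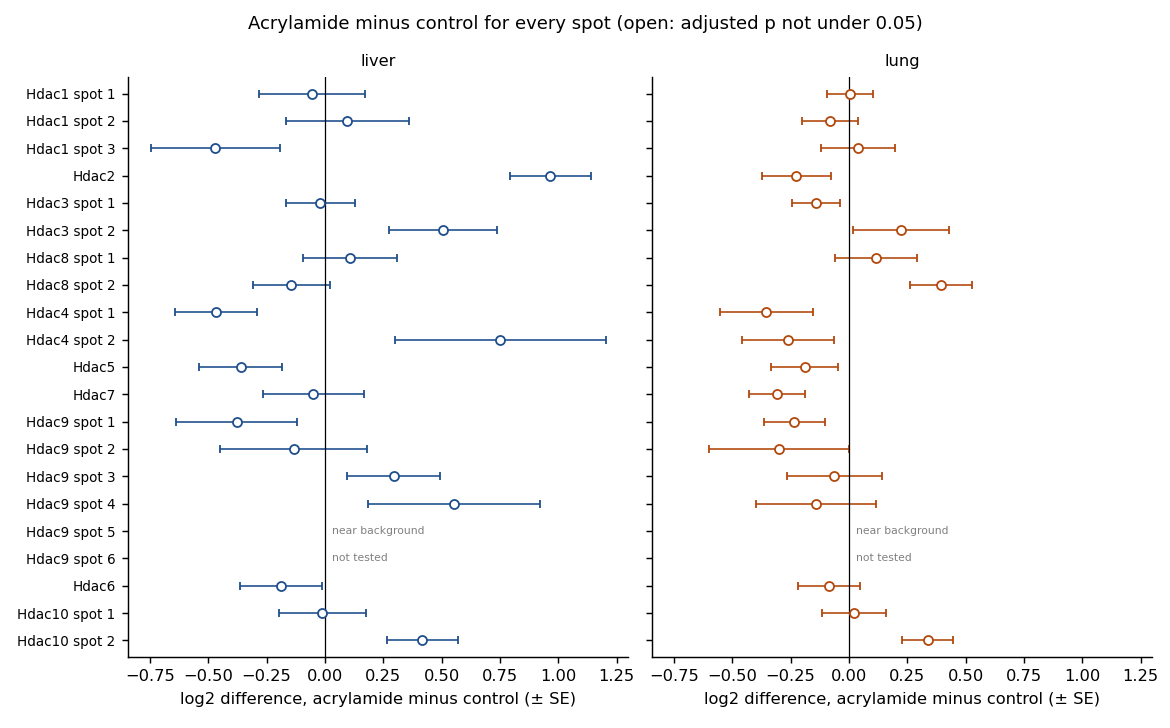
Acrylamide minus control for each spot of the 10 histone deacetylases in liver (left) and lung (right), as the log2 difference with its SE from the fit of every spot over 6 arrays a tissue; all points are open because no spot had an adjusted p under 0.05, and spot 5 of Hdac9 is not drawn because it was near background. In liver Hdac2 stood at 0.97, and in lung Hdac7 stood at -0.31.

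In lung, no member passed the test with acrylamide: 0 of 10, and 0% of the 22257 genes tested passed an adjusted p under 0.05 with limma. Hdac7 alone reached an unadjusted p under 0.05, beside 4.95% of all genes. The groups did not overlap for 2 members, Hdac7 and Hdac3, against 10.9% of all genes. The median difference of the members was -0.17, beside -0.01 over all genes, and 7 of the 10 differences were below 0.

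Hdac7 read 3.72, 3.83 and 3.90 in untreated lung and 3.63, 3.51 and 3.38 on lung acrylamide arrays 28, 29 and 30. Every acrylamide array lay below every control. The difference was -0.31 ± 0.11 (1.24-fold, 95% interval -0.58 to -0.04), with a limma p of 0.0315 and an adjusted p of 0.998. It was -0.32 within slide row 1 and -0.30 within row 2. The endothelial markers ranged from 2.94 to 3.09 on these acrylamide arrays and from 2.92 to 3.18 on the controls, so their ranges overlapped. Of these 10 markers 5 were higher and 5 lower with none called, but the 3 at an unadjusted p under 0.05 were all lower: the cadherin gene Cdh5 (-0.42 ± 0.17), the VEGF receptor gene Kdr (-0.32 ± 0.12) and Vwf (-0.32 ± 0.12), the gene of von Willebrand factor. Their part in the Hdac7 difference in lung was not tested.

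Hdac3 read 0.93, 0.90 and 1.02 in untreated lung and 0.76, 0.80 and 0.87 with acrylamide, a difference of -0.14 ± 0.09 (limma adjusted p = 0.998). Its dimmer spot had the opposite sign, 0.22 ± 0.20. Hdac4 read 0.95, 0.21 and 0.46 without acrylamide and 0.22, 0.18 and 0.16 with it, a difference of -0.36 ± 0.20 that was -0.15 without lung control 4. Hdac2, which stood apart in liver, read -2.53, -2.74 and -2.30 without acrylamide and -2.87, -2.73 and -2.65 with it in lung, overlapping, with a difference of -0.23 ± 0.14.

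Hdac9 differed by -0.23 ± 0.12 in lung and Hdac5 by -0.19 ± 0.14. The Hdac5 difference was -0.07 without lung acrylamide 30. The remaining members, Hdac1 (0.01), Hdac6 (-0.08), Hdac8 (0.12) and Hdac10 (0.02), had SEs from 0.09 to 0.17. For Hdac1 the lung arrays were tight, 4.51 to 4.58 without acrylamide and 4.51 to 4.61 with it, and the 95% interval ran from -0.21 to 0.22. In the fit of every spot 4 spots reached an unadjusted p under 0.05, beside 4.59% of all spots: Hdac7, the dimmer spots of Hdac8 (0.39 ± 0.13) and Hdac10 (0.34 ± 0.11), and spot 5 of Hdac9. That Hdac9 spot was above background on all 3 lung controls, at 1.97 to 3.88 times the limit, and on 1 of 3 acrylamide arrays, so no difference is given for it. Groups did not overlap for 5 of the 20 member spots tested, against 10.2% of all spots. That count includes spot 5 of Hdac9, which was near background.

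All 4 class IIa enzymes had differences below 0 in both tissues, by their brightest spots. In liver they were -0.47 for Hdac4, -0.36 for Hdac5, -0.05 for Hdac7 and -0.38 for Hdac9, and in lung -0.36, -0.19, -0.31 and -0.23. None was called. In liver the direction did not hold over settings: with the mean of a gene's spots Hdac4 gave 0.14 and Hdac9 0.08, and Hdac7 gave 0.05 with array weights and 0.10 without liver acrylamide 30.

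The difference between the tissues was tested in 1 model of all 12 arrays. No member passed: 0 of 10, and 0% of the 23306 genes tested had an adjusted p under 0.05 with limma, while 1 member and 4.44% of all genes had an unadjusted p under 0.05. That member was Hdac2, with an effect in lung minus that in liver of -1.19 ± 0.22, with a limma p of 0.000281, rank 8 of all genes, and an adjusted p of 0.756. The other members lay between -0.26 (Hdac7) and 0.17 (Hdac5). Hdac2 passed with array weights alone, at -0.98 and an adjusted p of 0.0381, where 139 genes were called. Without liver acrylamide 30 it was -1.06 (adjusted p = 0.0542), and 136 genes were called.

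No gene of the partner lists was called with acrylamide in either tissue. Of the NCoR list, the nuclear receptor genes Nr1d1 and Nr1d2, which recruit NCoR and Hdac3, differed by 0.75 ± 0.41 and 0.90 ± 0.34 in liver and by 1.21 ± 0.22 and 0.99 ± 0.26 in lung. Arntl, a clock gene that Nr1d1 represses, differed by -0.53 ± 0.30 in liver and -0.92 ± 0.14 in lung. The adjusted p of these 3 genes lay between 0.784 and 0.960 in those comparisons. In NuRD the remodelling ATPase gene Chd4 differed by -0.58 ± 0.15 in liver (limma adjusted p = 0.784) and 0.05 ± 0.13 in lung. Among partners of the class IIb enzymes, 14 of 16 were below 0 in liver and 6 of 16 in lung, and the list's median differences were -0.12 and 0.01. Hsp90aa1, a chaperone gene whose protein Hdac6 deacetylates, differed by -0.62 ± 0.27 in liver (limma adjusted p = 0.784).

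For 9 members, the gene with the most similar pattern was taken by Pearson r over the 12 arrays, which hold 2 tissues, so r includes the tissue difference. Hdac7 was nearest to Med31 (0.998) and Hdac6 to Cox6a1 (0.998). For Hdac9 it was Tox3 (0.991) and for Hdac1 Cttn (0.990). Hdac10 was nearest to Slc38a6 (0.983), Hdac3 to Abcd4 (0.982) and Hdac2 to Atl1 (0.968). The 2 members not called between the tissues had the lowest values, Hdac8 with Atf1 (0.903) and Hdac5 with Chd8 (0.902).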

How the data were processed

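Each deposited file lists the linear Cy3 intensity of 62976 spots. Per the submitters' processing notes, the authors used Agilent Feature Extraction 10.7; background subtraction is not stated. The 1319 control spots were removed and the 75th percentile of an array was subtracted from its log2 values. The deposited series matrix holds the same signal multiplied by 1 factor per array, which sets that percentile to 1000, and it was an alternative. A spot had to be above background on 3 or more arrays of a fit, and was tested with limma 3.58.1 (lmFit, eBayes) in R 4.3.3, each gene by its brightest spot, with Benjamini-Hochberg adjustment over all genes and a threshold of 0.05. A second fit of every spot gave the other spots. The liver and lung comparisons used 6 arrays each, the tissue and interaction contrasts all 12. Symbols came through Entrez numbers and a RefSeq table. The script was tested on simulated data. The 10 members, and the lists of partners and cell markers, were chosen with earlier results of these data known. Named partners were among the 4 genes of each list with the largest differences, except Arntl in liver and Chd4 in lung, given beside the other tissue; named genes of like pattern had the highest r, and the one for Hdac4 is not reported here. Alternatives were other scalings, the matrix, normexp background correction, filters on dim spots, means of spots, an intensity trend, array weights, slide row, 1 model for all arrays, the title number as a block and leaving out each array.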

Additional observations from a re-analysis of the deposited data

Results flagged for a closer look

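The acrylamide effect on Hdac2 differed between the tissues by -1.19 ± 0.22 on the log2 scale (lung effect minus liver effect), with a limma p of 0.000281 and an adjusted p of 0.756. It was the result of a test of the difference itself at an unadjusted p under 0.05. All 3 liver acrylamide arrays lay above all liver controls, and the lung groups overlapped. The value was between -1.30 and -1.06 when each array was left out in turn, and its cause was not tested.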

How the results depend on the processing

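No member was called with acrylamide in liver or lung under any setting run, and the interaction was called for 1 member, Hdac2, with array weights. Between the tissues 8 members were called, with 9 under quantile normalization (Hdac5 added) and with the mean of spots (Hdac8 added), 7 with slide row as a block, 6 with median scaling, and 7 to 8 when each array was left out. Genes called in that contrast were 17092, 35545 spots when every spot was tested and 12457 genes when a spot had to be above background on all arrays. In liver 1 model of all 12 arrays called 2 genes, and leaving out 1 array called 0 to 1. The interaction called 0 to 136 genes when 1 array was left out.

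Signs turned by more than 1 SE for members not called in liver with the mean of spots (Hdac3 0.24, Hdac4 0.14, Hdac9 0.083, Hdac10 0.20), array weights (Hdac1 0.18) and slide row 2 alone (Hdac1 0.31). In lung they turned with the mean of spots (Hdac3 0.041), row 1 alone (Hdac8 -0.059) and row 2 alone (Hdac10 -0.14). The interaction turned with the mean of spots (Hdac4 -0.45, Hdac9 -0.58) and array weights (Hdac1 -0.22). Between the tissues Hdac5 turned with quantile normalization (0.47) and median scaling (0.033) and Hdac8 with median scaling (0.043). Smaller turns occurred for Hdac1, Hdac3, Hdac7, Hdac8 and Hdac10 in liver (Hdac1 0.14 and Hdac7 0.098 without acrylamide 30, Hdac10 0.11 without acrylamide 27, Hdac3 0.054 without control 3), Hdac1 and Hdac10 in lung, and Hdac1, Hdac4, Hdac8, Hdac9 and Hdac10 in the interaction. The cause was not tested. The mean of spots differs by construction, as it adds dimmer spots.

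Title numbers 4, 29 and 30 occur in both tissues, and the labels do not say whether they mark the same mice. Deviations of same-numbered arrays correlated at 0.012, -0.021 and -0.156. With 3 arrays a group and different tissues, these values cannot settle whether the numbers pair arrays. The main tests did not pair them. With the replicate block 8 members were called between the tissues and 0 in the interaction (Hdac2 -1.20), and 16877 genes against 17092. Limits are 3 arrays a group, a high background on liver acrylamide 30, and dim spots for Hdac2, Hdac8 and Hdac9.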
